A study of Mus musculus with 7 samples.

Results

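Mouse embryos with 1 intact copy of Adnp were compared with wild-type littermates on embryonic day 9, using 5 of the 7 microarrays of a study that set out to find genes controlled by ADNP. The 3 heterozygous arrays (ADNP+/-, 6 embryos) and the 2 wild-type arrays (4 embryos) were chosen by their titles, and the 2 knockout arrays (4 embryos) entered only the estimate of the spread between arrays. All embryos were of strain C57BL/6 and labelled as mixed in sex. Each array, an Affymetrix Murine Genome 430A chip, was hybridised with total RNA of a pool of 2 whole embryos of the same genotype. Yolk sac and amnion had been removed, and yolk sac DNA was genotyped by PCR for Adnp and for neo, a drug-resistance gene. The allele is carried through the germline, so heterozygous embryos lack 1 copy in every tissue, and the mice housed for breeding were heterozygous too. The replicate is the pool, so a p-value here measures the spread between pools, and the sources do not give how litters were divided among pools.

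ADNP, the activity-dependent neuroprotective protein, is a nuclear protein with zinc fingers and a homeodomain. It binds DNA together with the remodelling enzyme CHD4 and HP1 proteins in a repressive complex, and it also associates with subunits of the SWI/SNF remodelling complex. It was first described as a gene whose transcript responds to vasoactive intestinal peptide (VIP) in glial cells. Mouse embryos without any intact copy die around mid-gestation with an open neural tube, whereas mice with 1 copy are born and breed, and people with a mutation in 1 copy have a neurodevelopmental syndrome.

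Values are MAS5 signals, the brightness of a set of probes for one transcript after scaling of each array. Of 22626 probe sets that are not controls, 19675 carry a single symbol of an autosomal gene, and they stand for 11965 genes. A gene was read from its brightest probe set, and 7761 genes whose mean signal lay above the lower 40% of probe sets were tested. Array medians lay between 55.5 and 57.4, and precision is limited throughout by the number of arrays. Differences are heterozygous minus wild type on the log2(signal + 3.8) scale, where 1 is 2-fold and the difference of a dim gene is understated. In RNA of whole embryos, fewer cells of a type and less RNA per cell cannot be told apart.

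The labelled tissue was borne out by markers of its parts. Signals over the 5 pools were 2149.0 to 2564 for the cardiac actin Actc1, 502 to 569 for the neural progenitor factor Sox2, 239 to 353 for the somite factor Meox1 and 2813 to 5823 for the embryonic globin Hba-x. Macrophage markers were mostly near background, with 2 of 11 past the filter on dim genes. Among the pools, 3 features stood apart and touch results below. Heterozygous pool 1 carried a high level of the decidual transcript Prl8a2, that the other pools had at 16.2 to 37.6. Of 28 markers of visceral endoderm, the yolk sac epithelium, 16 varied at least 2-fold over the 5 pools, within each genotype too for the brightest of them. Y-linked genes were dim in both wild-type pools and brighter in all 3 heterozygous pools, so the sex of the embryos and the genotype cannot be told apart.

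No autosomal gene passed the test for a difference between heterozygous and wild-type embryos. At a Benjamini-Hochberg adjusted limma p under 0.05, 0 of 7761 genes (0.0%) passed, and the smallest adjusted p was 0.9991. At an unadjusted p under 0.05 there were 274 genes (3.53%), of which 152 read higher (1.96%) and 122 lower (1.57%) in heterozygous embryos. A share of 5% of the genes tested would be 388. In the distribution of p-values the first of 20 bins was the emptiest, with 274 genes beside 343 to 425 in each of the others. Leaving out heterozygous pool 2 raised the count at unadjusted p to 461, and leaving out each array in turn gave 227 to 461, always with 0 genes past the adjusted threshold. Positive differences numbered 4024 and negative ones 3737, around a median of 0.007.

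**Figure D1:**
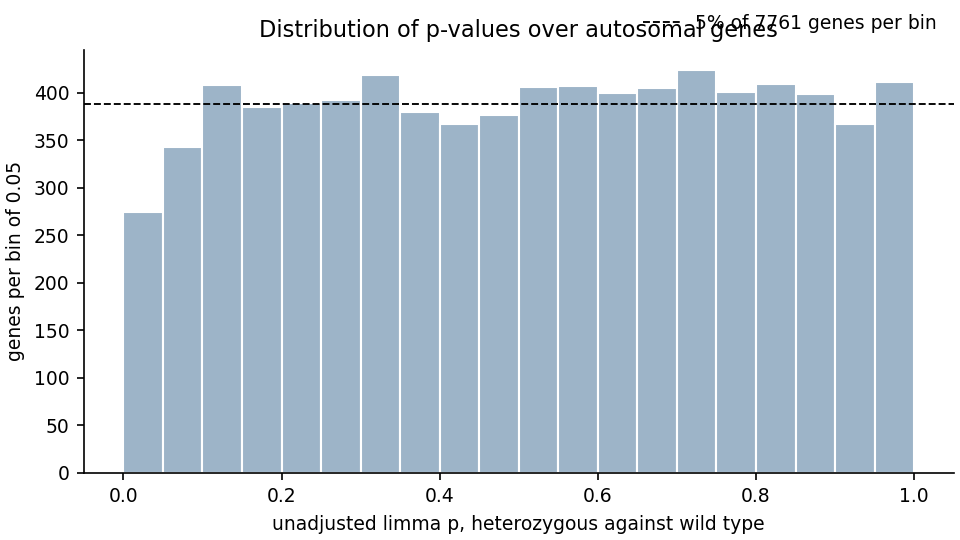
Histogram of the unadjusted two-sided limma p of each of the 7761 autosomal genes for heterozygous against wild type, in bins of 0.05, with a dashed line at 5% of the genes. The leftmost bin holds 274 genes and is the lowest, and the other 19 bins hold 343 to 425.

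The same fit sets a bound, for each tested gene, on the difference between these pools, in which genotype and sex cannot be told apart. The median 95% interval reached 0.36 to either side of the estimate, which is 1.29-fold, and the interval lay wholly within 2-fold for 7413 genes (95.5%). It lay within 1.5-fold for 5266 genes (67.9%). Bright genes were bounded more tightly than dim ones: intervals lay within 2-fold for 99.4% of the brightest 2587 genes and for 88.9% of the dimmest 2587, whose signals ran from 34.4 to 96.3. A difference of 2-fold or more was estimated for 8 genes that read higher (0.103%) and 5 that read lower (0.0644%), and in 6 and 4 of them the pools of the genotypes did not overlap. All 3 heterozygous pools lay above both wild-type pools in 705 genes (9.08%) and below both in 635 (8.18%). With the mean of Y-linked genes as a covariate, the interval lay within 2-fold for only 746 genes.

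Distances between pools of different genotype covered about the same range as those within a genotype. The SD of log2 differences over the 7761 genes was 0.33 between the wild-type pools, 0.32 to 0.39 among heterozygous pools, and 0.27 to 0.40 between genotypes. The closest pair of all crossed the genotypes, namely wild-type pool 1 and heterozygous pool 2 at 0.27. The most distant pair also crossed them, wild-type pool 1 and heterozygous pool 1 at 0.40. Medians of the difference by chromosome ran from -0.01 to 0.03 over the 19 autosomes.

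**Figure D2:**
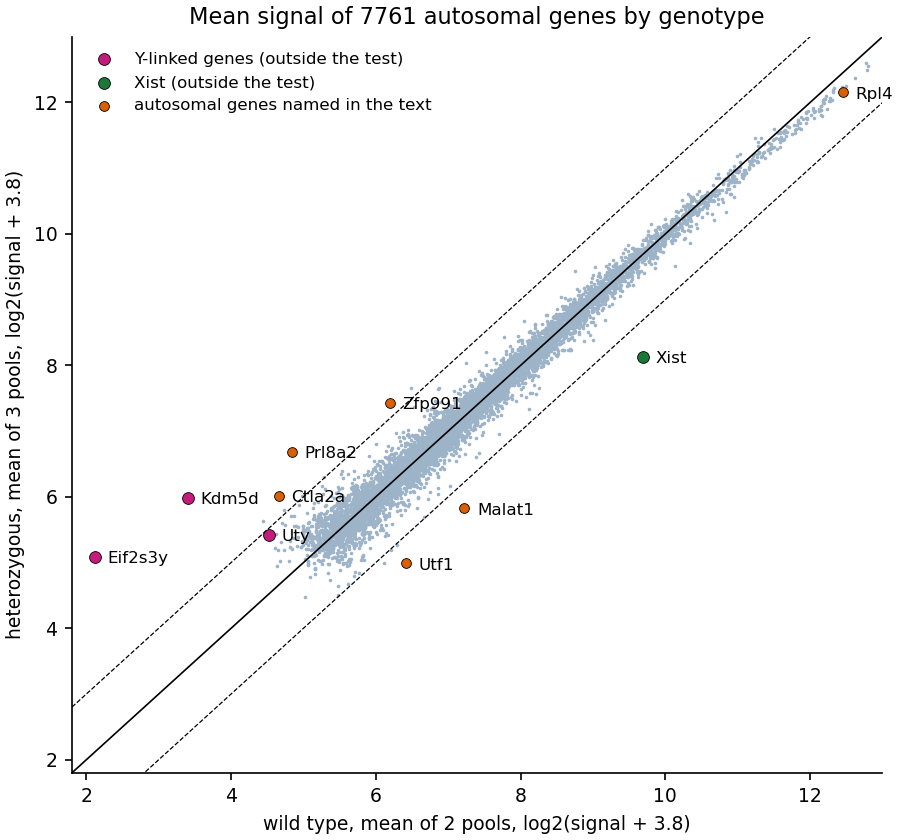
Mean log2(signal + 3.8) of 7761 autosomal genes in 2 wild-type pools (horizontal) and 3 heterozygous pools (vertical), with lines at equality and at 2-fold, and with named genes marked. The bulk lies between the 2-fold lines, the Y-linked genes Eif2s3y and Kdm5d and the X-linked Xist lie far outside them, and the brightest genes sit slightly below equality.

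Adnp itself could not be read alone. Its only probe set is annotated to both Adnp and Dpm1, the neighbouring gene of a dolichol-phosphate mannosyltransferase subunit, and it gave 897 and 1026 in wild-type pools and 1115, 986 and 1196 in heterozygous pools, a difference of 0.19 (SE 0.12). The groups overlapped, and the signal was no lower in embryos with 1 copy. A probe set for Dpm1 alone read 107 and 111 in wild-type pools and 120.5, 104 and 96.4 in heterozygous pools, with a 95% interval of -0.37 to 0.30. A second Dpm1 probe set, dim, read 40.0 and 31.8 against 27.8, 16.4 and 27.7, with all heterozygous pools lower and a difference of -0.54 (SE 0.32). The shared probe set read 1880.2 and 1682 in the knockout pools, so it cannot serve as a check of the genotype labels.

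Genes lying beside Adnp on chromosome 2 were read separately. Of the 20 protein-coding genes on each side, 28 were on the array and 21 were tested, with a median difference of -0.03. Of the 21, 1 had an unadjusted p under 0.05, beside 3.53% of all genes tested. That gene was Zfp64, a zinc finger gene on the Dpm1 side, at 69.6 and 68.1 in wild-type pools and 94.4, 102 and 84.8 in heterozygous pools. Its difference was 0.42 (SE 0.16), its pools did not overlap, and its adjusted p was 0.9991. The other Zfp64 probe set past the filter read 57.3 and 54.3 against 45.8, 65.5 and 49.4, with overlapping genotypes and a difference of -0.07. Snai1, which encodes a repressor of E-cadherin, read 139.9 and 162 against 156, 152 and 123 (difference -0.07). Differences of 3 further genes named in earlier results on this region were -0.04 for Trp53rka, -0.08 for the protease Ctsz and 0.26 for the lysosomal carboxypeptidase Ctsa.

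Genes of the complexes that ADNP joins had small estimated differences within narrow bounds. Of 26 tested members of the list of ADNP partners and chromatin regulators, 0 had an unadjusted p under 0.05, the median difference was -0.03, and the range was -0.27 to 0.26. All 26 intervals lay within 2-fold. All heterozygous pools were lower in 4 of the list, beside 8.18% of all genes, and higher in 1, beside 9.08%. Rbbp4, a histone chaperone of the NuRD complex, read 2346 and 2406 against 2221, 2300.0 and 2482, and Trim28, a co-repressor recruited by zinc finger proteins, read 2496 and 2211 against 2108, 2360.0 and 2261. A further Rbbp4 probe set read 977 and 986 against 870, 835 and 825, a difference of -0.22 with all heterozygous pools lower. The other one differed by -0.006, and there the genotypes overlapped. Mbd3, another NuRD subunit, gave 345 and 384 against 317, 317 and 319.8. There the 3 heterozygous pools were nearly equal to each other and all below wild type, but the difference of -0.19 had a 95% interval of -0.43 to 0.05. Actl6a, an actin-related subunit of SWI/SNF, differed by -0.17 (-0.42 to 0.08), and Mbd2, which binds methylated DNA, by 0.26 (-0.14 to 0.65). Second probe sets had the opposite sign in both genes. For Actl6a the second differed by 0.22, and for Mbd2 it read 82.4 and 76.2 against 61.8, 64.4 and 65.0, a difference of -0.30 with all heterozygous pools lower.

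The pathway through which Adnp was found was mostly too dim to follow. The peptide genes Vip, Adcyap1, Sct and Ghrh and the receptor genes Vipr1 and Vipr2 did not pass the filter on dim genes. The 6 members that did, which lie downstream of the receptors or beside them, had a median difference of 0.11, and none had an unadjusted p under 0.05. Gnas, the stimulatory G protein subunit, read 3010.4 and 3176 in wild-type pools and 2679.6, 2796 and 2778 in heterozygous pools, with all heterozygous pools below wild type and a 95% interval of -0.35 to 0.01. After quantile normalization of the arrays its difference went from -0.17 to -0.03, and 0 genes of the list had all heterozygous pools lower and 1 had all higher. Prkar1a, a regulatory subunit of protein kinase A, read 572 and 705 against 745, 702 and 693, a difference of 0.17.

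ADNP has also been linked to microtubules and autophagy. Of 16 tested genes of that list 1 had an unadjusted p under 0.05, beside 3.53% of all genes tested. It was the autophagosome protein gene Map1lc3a, at 144 and 165 in wild-type pools and 285, 162 and 215 in heterozygous pools. Its pools overlapped, because heterozygous pool 2 lay below wild-type pool 2. The tubulin gene Tuba1a (2621 and 2500.0 against 2693, 3134 and 2610.3) and the cap-binding gene Eif4e (996 and 1186 against 1222, 967 and 1082), whose product was reported to bind ADNP, differed by 0.13 and -0.003. After quantile normalization the difference of Tuba1a was 0.30. With that scaling 2 genes of the list had an unadjusted limma p under 0.05, beside 3.3% of all genes. All heterozygous pools were then higher in 3 of the list, against 0 before. Atg7, an autophagy enzyme, differed by -0.55 with an interval of -1.26 to 0.16 that exceeds 2-fold.

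Among genes whose pools did not overlap, the 10 of smallest p in each direction are described next, all with an adjusted p of 0.9991. Rian had the smallest p of all. It is a maternally expressed long noncoding RNA of the imprinted Dlk1-Dio3 region on chromosome 12 and gave 118 and 106 in wild-type pools and 201, 174 and 213 in heterozygous pools. The difference was 0.79 (SE 0.14, 95% interval 0.48 to 1.09), and it stayed between 0.71 and 0.87 with each pool left out. Its other probe sets past the filter differed by 0.35 and -0.30, and in both the genotypes overlapped. In the same imprinted region the 5 probe sets of Meg3, another maternally expressed RNA, differed by 0.003 to 0.25, and the paternally expressed Dlk1 by -0.11. Meg3 and Dlk1 are in the list of imprinted genes, and Rian is not among its 19 tested members. Of these 19, 0 had an unadjusted p under 0.05, and 1 did after quantile normalization.

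The other genes with higher signals in heterozygous pools had mixed roles. Arpc4, a subunit of the actin-nucleating Arp2/3 complex, read 473 and 384 in wild-type pools and 838, 674 and 585 in heterozygous pools (difference 0.69, 95% interval 0.34 to 1.04), whereas its other probe set gave 0.17. Zfp991, a zinc finger gene, had the largest difference of the 10 at 1.25 (65.2 and 73.3 against 213, 119 and 189.9), but a second probe set read 83.4 and 80.5 against 79.7, 79.8 and 84.6. Upf1, the helicase of nonsense-mediated mRNA decay, read 41.6 and 43.1 against 93.9, 67.6 and 80.6 and differed by 0.86.

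Neurod2, a transcription factor of maturing neurons, was dim at 22.2 and 34.3 against 63.0, 62.9 and 56.8, with a difference of 1.04 (0.49 to 1.59). The cell-surface glycoprotein gene Cd99 read 285 and 238 against 466, 399.5 and 360.4, and its 2 other probe sets differed by 0.06 and 0.36. Dhps, the enzyme that starts hypusine modification of a translation factor, read 87.1 and 79.7 against 124, 119.8 and 134. Hyal2, a hyaluronidase, ranged from 122 to 178 in wild type and from 229.7 to 316 in heterozygous pools. The noncoding Snhg11 differed by 0.93 and Atxn7l1, a relative of ataxin-7, by 0.75, both on dim signals.

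The 10 genes with lower signals held several of DNA replication and repair. Parp1, the polymerase that marks DNA breaks with poly(ADP-ribose), had the smallest p of them, at 1204 and 1386 in wild-type pools and 871, 961 and 942 in heterozygous pools, 1295 ± 128 (SD, n = 2) against 925 ± 47.2 (SD, n = 3). It differed by -0.48 (SE 0.10, 95% interval -0.71 to -0.26). A second probe set read 959 and 938 against 735, 798 and 842, again without overlap, and the remaining one differed by 0.12. Prim2, the large subunit of DNA primase, read 234 and 304 against 177, 206 and 158, a difference of -0.56, and its other probe set gave 225 and 180.4 against 129.9, 127 and 168, a difference of -0.51. Rad17, which loads the checkpoint clamp, read 219 and 199 against 154, 158 and 134 (difference -0.48). This grouping was seen after the values, and no list for it was tested.

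Protein turnover and translation supplied 3 more. Psma4, an alpha subunit of the proteasome core, read 1835 and 1816 in wild-type pools and 1089, 1385 and 1409 in heterozygous pools (difference -0.51). The 34 tested proteasome subunits had a median of -0.01. Psma4 was the only one at an unadjusted p under 0.05, beside 3.53% of all genes tested. The chaperone gene Hspa8 read 4596 and 4562 against 3259, 3867 and 3598 and the ribosomal protein gene Rpl4 5736 and 5524 against 4229, 4729 and 4716. Both are among the brightest genes of the array, whose scale is taken up below. Slc38a1, a glutamine transporter, read 457 and 479.5 against 296, 342 and 352, with all heterozygous pools lower.

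The remaining 3 were Col1a1, Frmd6 and Tex9. Col1a1, the main chain of type I collagen, read 302 and 301 against 167, 182 and 254, a difference of -0.60 that its second probe set (-0.06) did not share. Frmd6, a FERM domain gene linked to Hippo signalling, read 161 and 187 against 110.0, 116 and 132. The testis-expressed Tex9 read 122 and 102 against 67.1, 55.0 and 64.4 and differed by -0.81.

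**Figure D3:**
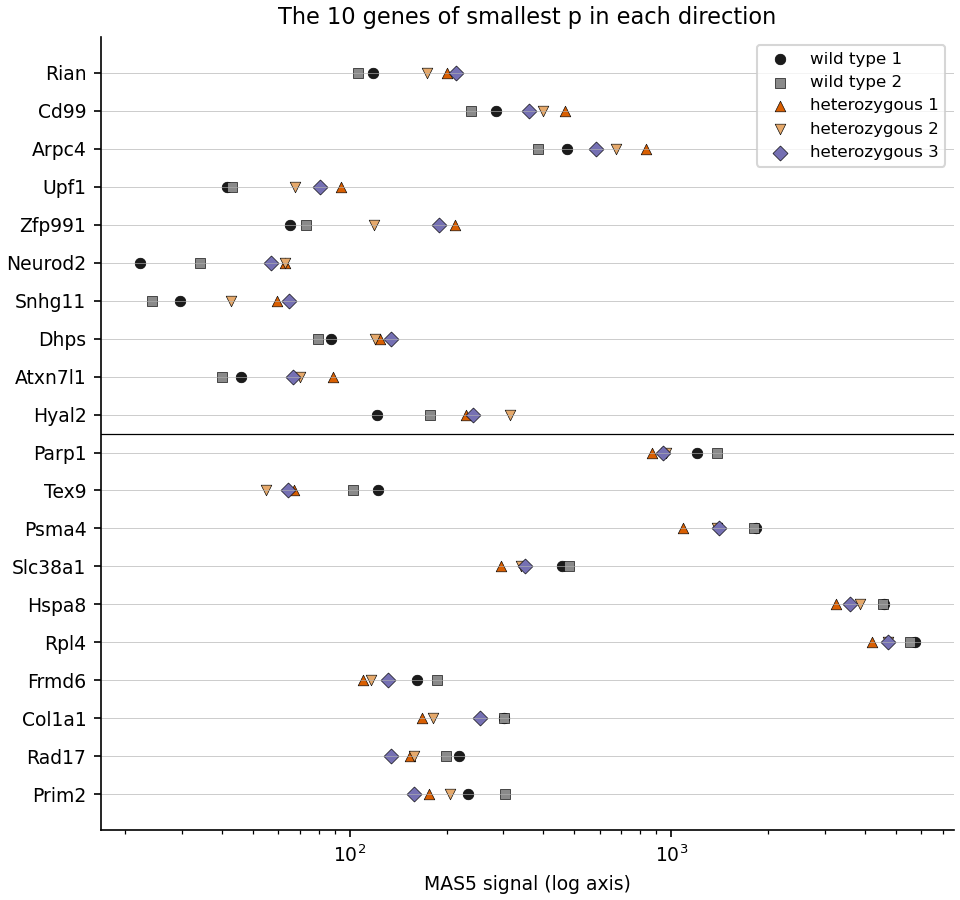
MAS5 signals on a log axis for the 10 genes of smallest p in each direction (higher above the line, lower below it), 1 marker per pool. In each gene the 3 heterozygous pools lie beyond both wild-type pools, which is how the genes were chosen. Every adjusted p was 0.9991.

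Second probe sets gave a reading of these differences that the choice of the brightest did not use. Of the 20 genes, 9 had further probe sets past the filter, 14 in all, and 12 of those 14 showed a smaller or opposite difference. The 20 genes were chosen by p on the brightest probe set, which by itself favours smaller differences on the others. Over all 2874 genes with more than 1 probe set past the filter, the brightest and next brightest had the same sign in 1530 (53.2%). Where the brightest had an unadjusted p under 0.05, that held for 66 of 120 genes (55%). In 6 of the 120 (5%) the next brightest also had an unadjusted p under 0.05 in the same direction. Over every probe set tested, 3.27% had an unadjusted p under 0.05 in either direction. The 6 genes were Parp1, Prim2, Hspa8, Npm1, Snrnp27 and Naa35, all lower in heterozygous pools. Npm1, the nucleolar chaperone nucleophosmin, read 4389 and 4554 against 3324, 3964 and 3938 and 4156 and 4366 against 3046, 3921 and 3761 on its probe sets. Npm1 and Hspa8 lie in the signal range of the 100 brightest genes, whose scale is taken up below. The next brightest Hspa8 probe set differed by -0.57. Another, dimmer than that range, read 1134 and 1432 against 842, 1019 and 868, a difference of -0.49 with all heterozygous pools lower. The dimmest Hspa8 probe set past the filter differed by -0.04. Snrnp27, a spliceosome protein, read 1118 and 1129 against 450.3, 884 and 968 and 740.0 and 823 against 381, 690.5 and 557. Heterozygous pool 1 was the lowest on each of its probe sets. Npm1, Snrnp27 and Naa35 were named after their values were seen. Of 155 named genes 54 had further probe sets past the filter, and in 23 of those at least 1 of them had the opposite sign.

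Several of the largest differences rested on 1 pool. Prl8a2, a prolactin-like hormone of the decidua (the uterine lining around the embryo), gave 37.4 and 16.2 in wild-type pools and 829, 37.6 and 27.4 in heterozygous pools. Only heterozygous pool 1 was high, so the difference of 1.83 had an SE of 1.13 and became 0.32 without that pool. Ctla2a, a protease inhibitor, was highest in the same pool at 21.5 and 21.3 against 175, 45.4 and 27.1, and its difference went from 1.36 to 0.63. In the same pool A2m, a protease-trapping plasma protein, read 210.2 beside 34.4 to 52.4 elsewhere, and S100a6, a calcium-binding protein, 99.5 beside 19.6 to 30.3.

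The other decidual markers read at most 61.6 in that pool. That value was of Dcn, a matrix proteoglycan, at 30.1 to 41.9 in the other pools. Prl3c1 read 6.6 there against 1.3 to 3.3, and Igfbp1 read 3.1 against 2.8 to 9.9. The summed signal of the 8 decidual markers was 954 in heterozygous pool 1 and 106 to 154 in the other 4 pools. Without Prl8a2 the sum of the other 7 was 125 there and 89.9 to 117 elsewhere. The pool's part in other results was tested only by leaving the pool out. A2m and S100a6 were named after their values were seen.

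Heterozygous pool 1 also held more low outlying values than any other pool. In 26 genes it lay at least 2-fold below each of the other 4 pools, against 5 to 10 genes for any other pool. Ago2, the slicing enzyme of RNA interference, read 268 and 281 against 54.5, 267 and 265. Cbl, a ubiquitin ligase, read 93.5 and 101 against 13.5, 93.5 and 78.3, Il6ra, a cytokine receptor chain, 80.6 and 57.2 against 7.8, 69.5 and 88.9, and the zinc transporter gene Slc30a3 149 and 108 against 17.4, 118 and 138. Akap9, a centrosomal scaffold among the 5 lowest differences, went from -1.12 to -0.41 without this pool.

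Malat1, a nuclear noncoding RNA, varied more within each genotype than between them, at 263 and 79.9 in wild-type pools and 7.6, 271 and 54.2 in heterozygous pools. Of the other large differences, Inhbb, an activin subunit, and Hdgfl1 were low in heterozygous pool 2 alone or most of all (70.9 and 69.1 against 54.9, 10.9 and 52.5 and 80.6 and 69.3 against 48.4, 16.6 and 50.0). The gene 1110008P14Rik was high in heterozygous pools 1 and 2 and not in pool 3 (83.1 and 89.2 against 312, 365 and 66.0), and its other probe sets differed by 0.12 and -0.09. Ago2, Cbl, Il6ra and Slc30a3 were named after their values were seen.

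Among named genes with differences of at least 2-fold, Zfp991, Neurod2, Utf1 and Slc1a5 kept theirs best. With any 1 wild-type or heterozygous pool left out, their differences were at least 0.76 in size. The difference of Zfp991 stayed between 1.08 and 1.49, but its second probe set, described above, differed by -0.01. That of Neurod2 stayed between 0.76 and 1.31. Utf1, a chromatin-bound factor of pluripotent and germ cells, read 73.3 and 89.9 in wild-type pools and 12.1, 32.4 and 51.4 in heterozygous pools, a difference of -1.42 (95% interval -2.35 to -0.50). Both wild-type pools were above all heterozygous ones, but the heterozygous pools differed several-fold among themselves, and the difference was -0.93 without heterozygous pool 1. Slc1a5, a neutral amino acid transporter, was dim at 20.2 and 15.9 against 47.3, 26.7 and 75.1 (difference 1.19, and 0.86 to 1.55 with a pool left out). The adjusted p of each was 0.9991.

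Genes that earlier results on these arrays gave as altered in knockout embryos had small estimated differences with 1 copy. The list was chosen on the knockout arrays and the same wild-type arrays, so it is not independent of them. Heterozygous arrays may also have served as controls in that choice, which would favour genes with heterozygous levels near wild type. The small differences of the list are therefore no test of the effect of 1 copy. Of its 13 autosomal members 0 had an unadjusted p under 0.05, the median difference was 0.04, and 11 intervals lay within 2-fold. Bnip3, a mitophagy and hypoxia-response gene, read 491 and 466 in wild-type pools and 540.3, 545 and 495 in heterozygous pools, while the knockout pools read 1624 and 1575. Its heterozygous difference was 0.14 with an interval of -0.07 to 0.35.

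Mt1, a metal-binding metallothionein, read 159 and 164 in wild-type pools and 134, 179 and 213 in heterozygous pools, with knockout pools at 1014 and 872. Myl2, the ventricular myosin light chain, read 589 and 533 in wild-type pools and 696, 616 and 475 in heterozygous pools, with knockout pools at 95.4 and 84.2. For Ddit4, a stress-induced inhibitor of mTOR signalling, the interval was -0.27 to 0.38, and for Pax1, a factor of the sclerotome, -0.51 to 0.58. In these 4 genes the heterozygous pools spanned the wild-type range.

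Apoe, the lipid-carrying apolipoprotein, was the member with the lowest estimate, -0.56. It read 209 and 85.3 in wild-type pools and 93.0, 91.6 and 84.1 in heterozygous pools, so wild-type pool 1 alone was high and the interval of -1.20 to 0.08 admits a 2-fold decrease. Knockout pools read 967 and 1243. The lysosomal protease gene Ctsh differed by -0.47 (-1.09 to 0.16), also beyond a 2-fold bound, and the atrial peptide gene Nppa by -0.19 (-0.60 to 0.22).

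Genes of organ primordia had list medians near 0. Of the 27 tested heart genes 0 had an unadjusted p under 0.05, the median was 0.03 and all 27 intervals lay within 2-fold. Actc1 read 2564 and 2159 against 2196, 2402 and 2149 and the atrial myosin light chain Myl7 1302 and 897 against 1059, 1304 and 1058. The troponin genes Tnni3, Tnnc1 and Tnni1 had the smallest p of the list, with estimates of 0.40 (-0.09 to 0.88), 0.29 and 0.22, while another, Tnnt2, read 527 and 324 against 332, 348 and 348. The 9 somite genes had a median of -0.02 and intervals within 2-fold throughout, with Foxc1, a forkhead factor of paraxial mesoderm, at 276 and 235 against 201, 241 and 190.1 and a difference of -0.28. The 13 endothelial genes had a median of 0.06, among which the VEGF receptor genes Kdr (0.12) and Flt1 (-0.51) had estimates of opposite sign.

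The nervous system is where ADNP is best known. Of 20 tested genes of neural progenitors and brain patterning 1 had an unadjusted p under 0.05, a share near the 3.53% of all genes tested. It was Hes1, a Notch-induced repressor of differentiation, at 137 and 92.8 in wild-type pools and 171, 157 and 131 in heterozygous pools, where the genotypes overlapped. Sox2 read 569 and 559 against 502, 567 and 561, and Irx3, a homeobox gene of the neural tube, 568 and 481 against 558, 612 and 579. Pax6 and Pax3, patterning factors of the eye and dorsal neural tube, were estimated lower at -0.38 (-0.83 to 0.08) and -0.39 (-0.91 to 0.13). In Pax3 heterozygous pool 1 read 70.1 and the others 117 to 134.

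Among 18 neurogenesis genes the median was -0.03 and 1 had an unadjusted p under 0.05, beside 3.53% of all genes tested. That gene was Gap43, a growth-cone protein, at 146 and 159 in wild-type pools and 129, 121 and 116 in heterozygous pools (difference -0.32). The Notch ligand gene Dll1 read 244 and 279.7 against 329, 283 and 265. Levels of this list varied between pools of the same genotype, as described below.

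In the list of neural crest and pharyngeal arches 2 of 17 genes had an unadjusted p under 0.05, both higher, beside 1.96% of all genes tested. Sox9, a crest and cartilage factor, read 64.0 and 67.8 in wild-type pools and 103, 85.5 and 92.3 in heterozygous pools (difference 0.48, 95% interval 0.10 to 0.86). Its second probe set read 72.8 and 66.0 against 65.0, 69.0 and 51.5, with the opposite sign (-0.17), so the gene was not higher on both. Dlx5, a homeobox gene of the lower jaw arch, read 57.6 and 61.3 against 109, 67.5 and 80.6 (difference 0.48). Twist1, a mesenchymal factor of the same list, was estimated lower at -0.26 (-0.54 to 0.02), with the genotypes overlapping, and the list's median was 0.04.

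Hox genes, which pattern the body axis, had a positive difference in 14 of 18, beside 4024 of all 7761 genes tested. All heterozygous pools were higher in 3 of the 18, beside 9.08% of all genes, and lower in 0. The list's median was 0.14, and -0.03 when wild-type pool 1 was left out. Hoxb9, a trunk gene, read 137 and 97.9 in wild-type pools and 180.1, 138 and 196 in heterozygous pools (difference 0.54, 95% interval 0.06 to 1.01). Of the list only Hoxb9 had an unadjusted p under 0.05, beside 3.53% of all genes tested. Hoxa9, another posterior gene, read 44.5 and 129 against 111, 98.5 and 143, with wild-type pool 1 alone low. Of 7 tested genes of pluripotency and the primitive streak, Utf1 was the only one at an unadjusted p under 0.05, beside 3.53% of all genes tested. Dppa3, a germ-cell factor, read 46.6 and 39.3 against 29.9, 20.2 and 35.9, and Lin28a, an RNA-binding developmental timer, 1099.8 and 558 against 536, 1160.0 and 944.

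**Figure D4:**
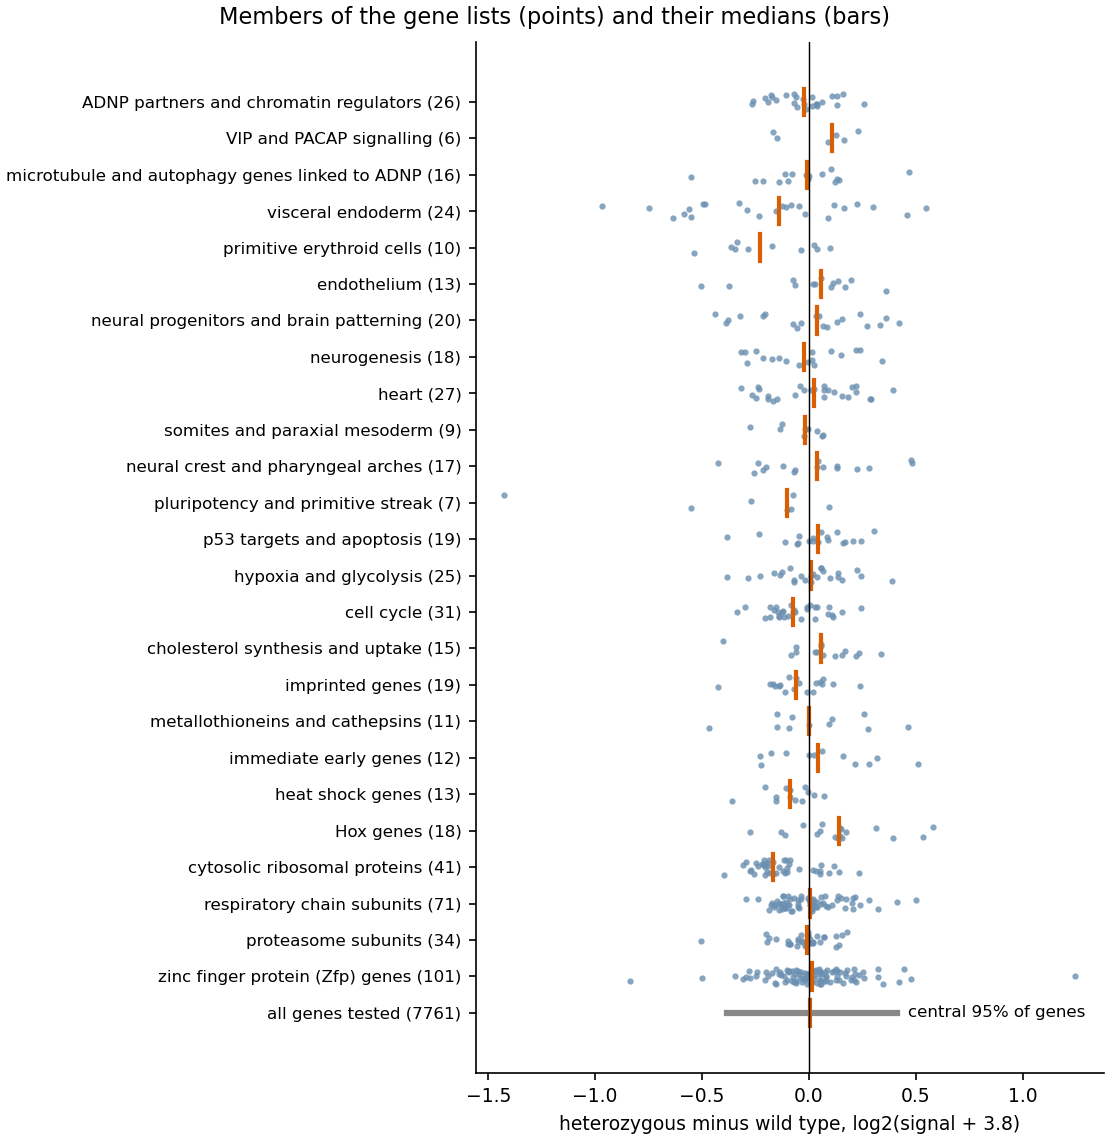
Log2 difference, heterozygous minus wild type, of each tested member (points, jittered vertically) of the 25 gene lists with at least 5 tested members, with the list's median as a bar and the number of members in brackets, and the central 95% of all 7761 genes as a grey line. List medians lie between -0.23 for primitive erythroid cells and 0.14 for Hox genes, and 32 of 41 ribosomal proteins lie to the left of 0, against 20 of 41 after quantile normalization.

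Very bright genes read slightly lower in heterozygous pools. Among 41 cytosolic ribosomal protein genes 32 had a negative difference, 22 had all heterozygous pools below wild type, and 7 had an unadjusted p under 0.05, all lower. Over all genes tested, 8.18% had all heterozygous pools lower and 1.57% were lower at that p. The list's median was -0.17. Rpl6 read 4781 and 4352 in wild-type pools and 3452, 4015 and 3879.6 in heterozygous pools (difference -0.27), Rps18 4966 and 4912 against 3788, 4482 and 4248 (-0.25), and Rpl41, the brightest, 7083 and 6939.7 against 5515, 6537 and 6554 (-0.18).

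The same held for bright genes of any function and depended on how arrays are scaled. Of the 100 brightest genes, with mean signals from 2476 upward, 93 had a negative difference, and their median was -0.15. After quantile normalization, which gives all arrays one distribution of signals, 52 of the 100 were negative with a median of -0.002. Ribosomal proteins then had 20 of 41 negative, a median of 0.002, 2 members with all heterozygous pools lower, 6 with all higher, and 0 with an unadjusted p under 0.05. The difference of Rpl4 moved from -0.31 to -0.11 and that of Hspa8 from -0.36 to -0.17, while Parp1 moved only from -0.48 to -0.47. Differences of Rbbp4, Trim28, Eif4e, Actc1, Ldha and Rpl41 also changed sign with that scaling, to 0.09, 0.03, 0.02, 0.04, 0.03 and 0.03. Those of Tuba1a and Aldoa grew, from 0.13 to 0.30 and from 0.10 to 0.27. Heterozygous pool 1 lay furthest down in the 100 brightest genes, and without it their median was -0.10.

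Cell division and metabolism were bounded closely. All 31 tested cell cycle genes had intervals within 2-fold, and the median was -0.08. Negative differences numbered 21, beside 3737 of all 7761 genes tested. All heterozygous pools were lower in 7 of the list, beside 8.18% of all genes, and higher in 3, beside 9.08%. After quantile normalization they were lower in 5 and higher in 3. Cdc20, an activator of the anaphase-promoting complex, was the only one at an unadjusted p under 0.05, beside 3.53% of all genes tested. Cdc20 read 1307 and 1288 against 1070.2, 1245 and 876, with heterozygous pool 3 lowest. Its second probe set, about as bright, read 1225 and 1029.5 against 1214, 1172 and 1102, a difference of 0.05. Pcna, the replication clamp, read 3699.8 and 3504 against 3211, 3133 and 3375 (difference -0.15) and Birc5, the mitotic regulator survivin, 903 and 916 against 746, 781 and 842 (-0.20). Both had all heterozygous pools lower, but that of Pcna turned to 0.04 after quantile normalization, and the list's median became -0.03. Bub1, a spindle checkpoint kinase, was higher in all 3, at 403 and 371 against 526, 433 and 424.

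Of 25 genes of hypoxia and glycolysis Mxi1, a MYC antagonist, was the only one at an unadjusted p under 0.05, beside 3.53% of all genes tested. Mxi1 read 121 and 163 against 185, 192 and 177 (difference 0.39), and its second probe set differed by -0.01. The bright glycolytic genes Ldha, Pgam1 and Aldoa differed by -0.16, -0.23 and 0.10. The 71 respiratory chain subunits had a median of 0.004. At an unadjusted p under 0.05, 1 was higher and 1 lower, beside 1.96% and 1.57% of all genes tested. Uqcrq of complex III was the higher one (393 and 384 against 667, 484 and 428). The ATP synthase subunit gene Atp5g3 was the lower one (3590.5 and 3770.1 against 2913, 3313 and 3131). After quantile normalization the difference of Atp5g3 went from -0.24 to -0.06, and 1 gene of the list was left at that p.

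Among 15 genes of cholesterol synthesis and uptake 4 had all heterozygous pools higher, beside 9.08% of all genes tested, and 2 were higher at an unadjusted p under 0.05, beside 1.96%. Fdps, the synthase of farnesyl pyrophosphate, read 472 and 493 in wild-type pools and 568, 541 and 596 in heterozygous pools, a difference of 0.23 (0.02 to 0.45). Hsd17b7, a reductase late in the pathway, read 119.9 and 98.1 against 143, 130.4 and 141 (0.34), and the early enzyme gene Hmgcs1 1134 and 1178 against 1209, 1219 and 1185. The list's median was 0.06 beside 0.007 over all genes.

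Of 19 p53 targets and apoptosis genes Phlda3, an inhibitor of AKT signalling, was the only one at an unadjusted p under 0.05, beside 3.53% of all genes tested. Phlda3 was lower, at 168 and 141 against 112, 110.4 and 129. The survival gene Mcl1 read 645 and 585 against 694, 628 and 640.2. Among 12 immediate early genes 0 had an unadjusted p under 0.05, with Egr1 at 42.3 and 27.3 against 52.1, 58.1 and 41.6 and Myc at 152 and 206 against 210.4, 244 and 213. Heat shock genes had 11 of 13 negative differences, beside 3737 of all 7761 genes tested. Their median was -0.09, and -0.04 after quantile normalization. Metallothioneins and cathepsins numbered 11 tested genes with a median at 0, and among them were the aspartic protease gene Ctsd at 0.28 and the metal sensor gene Mtf1 at 0.46. Of 101 zinc finger (Zfp) genes 5 had an unadjusted p under 0.05, all higher, beside 1.96% of all genes tested that were higher at that p. All heterozygous pools were higher in 8 Zfp genes, beside 9.08% of all genes, and lower in 9, beside 8.18%. Zfp622, a gene for a ribosome maturation factor, read 655 and 576 against 839.9, 800.2 and 679.7, and its second probe set had the opposite sign (-0.09). Too few germline, trophoblast, macrophage, decidual and plasma protein genes passed the filter for their lists to be described beyond 1 to 4 members each.

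Some genes differed more between pools of the same genotype than between genotypes, visceral endoderm genes among them. Ttr, the thyroid hormone carrier transthyretin, read 666 and 60.8 in wild-type pools and 44.7, 431 and 86.3 in heterozygous pools. Afp, alpha-fetoprotein, read 559.7 and 140.5 in wild-type pools and 131, 323 and 153 in heterozygous pools. Among the 12 markers of the list that varied less than 2-fold were the transcription factor genes Foxa2 (135 and 114 against 124, 118 and 126) and Gata4 (97.7 and 89.8 against 101, 103 and 101). In Ttr and Afp, wild-type pool 1 and heterozygous pool 2 were the high pools, and the genotypes overlapped. The summed signal of the list's 28 genes was 4257 and 1575 in wild-type pools and 1722, 2977 and 2003 in heterozygous pools. With a median SE of 0.33, 0 of 24 tested genes had an unadjusted p under 0.05, and 11 intervals lay within 2-fold. The list's median went from -0.14 to 0.33 without wild-type pool 1.

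Neurogenesis genes ran the other way across the pools. Their summed signal was 1846 and 2760 in wild-type pools and 2738, 1913 and 1998 in heterozygous pools, so wild-type pool 2 and heterozygous pool 1 were high. Tubb3, a neuronal tubulin, read 59.3 and 149.5 against 124, 63.7 and 67.2, and Nefm, a neurofilament protein, 58.2 and 178 against 154, 58.8 and 62.5. The median of the list went from -0.03 to -0.44 without wild-type pool 1 and to -0.25 without heterozygous pool 1.

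Of 13 primitive erythroid markers 7 were highest in wild-type pool 2, the bright globin genes among them, with Hba-x at 3549.6 and 5823 in wild-type pools and 4356, 2813 and 3724 in heterozygous pools and the beta-like globin Hbb-y at 4266 and 5439 against 3539, 3612 and 4325. Another 3, the heme synthesis gene Alas2 among them (105 and 175 against 196, 93.5 and 128), were highest in heterozygous pool 1, and the transferrin receptor gene Tfrc was lowest in wild-type pool 2 (746 and 615 against 645, 754 and 692). The list's median was -0.23, and -0.12 after quantile normalization, with 0 of 10 tested genes at an unadjusted p under 0.05. Without wild-type pool 1 the median was -0.50. The difference of Hba-x went from -0.35 to -0.18 with that scaling. With the mean of visceral endoderm genes as a covariate, 377 genes had an unadjusted p under 0.05, and 0 passed after adjustment.

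**Figure D5:**
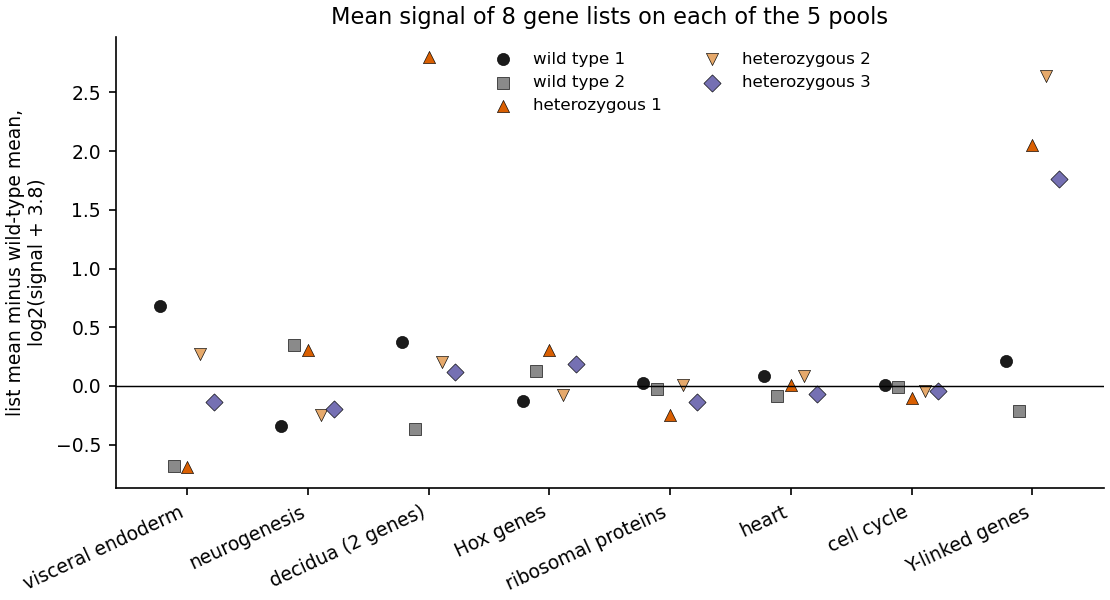
Mean log2(signal + 3.8) of the tested genes of 7 lists and of the Y-linked genes on each of the 5 pools, drawn relative to the mean of the 2 wild-type pools. Visceral endoderm and neurogenesis separate wild-type pool 1 from pool 2, the decidual list, of which only Prl8a2 and Dcn were tested, is high in heterozygous pool 1 through Prl8a2, and only the Y-linked genes place all 3 heterozygous pools far from both wild-type pools.

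The widest separation of the genotypes lay outside the autosomes. Eif2s3y, a Y-linked translation factor gene, read 0.8 and 0.3 in wild-type pools and 28.2, 44.3 and 21.9 in heterozygous pools. The Y-linked demethylase gene Kdm5d read 10.0 and 4.3 in wild-type pools and 46.7, 90.3 and 50.1 in heterozygous pools. Xist, the RNA that coats the inactive X chromosome of female cells, read 801 and 844 in wild-type pools and 595, 62.0 and 548 in heterozygous pools on its brightest probe set. The wild-type pools were low in both Y-linked genes and high in Xist, and all heterozygous pools had more of the Y-linked RNA.

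When sex-linked genes were fitted with all probe sets, Eif2s3y differed by 2.97 (SE 0.37, limma adjusted p 0.2242) and Kdm5d by 2.59 (SE 0.41, adjusted p 0.7615). The mean log2 signal of Y-linked genes was 3.56 and 3.14 in wild-type pools and 5.40, 5.99 and 5.11 in heterozygous pools. With that mean as a covariate, the interval lay within 2-fold for only 746 of 7761 genes, and 0 genes passed the adjusted threshold. An autosomal difference tied to genotype and one tied to sex cannot be told apart on these arrays.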

How the data were processed

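The authors deposited linear intensities, summarised per probe set with MAS5, per the submitters' processing notes. The sources give no software version, scaling target, detection calls or annotation build. The mean after trimming 2% at each end was 150.05 on every array. A MAS5 scale makes every value relative to the whole array.

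Groups and replicate numbers came from sample titles. Of 22690 probe sets, 64 controls, 691 with several symbols, 1555 not listed, 681 on X or Y and 24 without a known chromosome were left out. A gene table of GRCm38.p6 served for names, chromosomes and gene order only. The pseudocount of 3.8, added before taking log2, is the 10th percentile of all signals. Genotypes were compared in R 4.3.3 with limma 3.58.1 (lmFit, eBayes with intensity trend). The fit held all 7 arrays and had 4 residual and 6.29 prior degrees of freedom. P-values are two-sided, Benjamini-Hochberg adjusted over 7761 genes, threshold 0.05. Intervals are 95% from the moderated t. The script was tested on simulated data.

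The 31 gene lists held 884 genes, 801 on the array and 605 tested. Members, lists and tests were chosen with earlier results of these data known. Named genes were the 10 of smallest p in each direction among those with pools that do not overlap, the 5 largest differences in each direction, up to 3 members of smallest p and the 2 brightest of each list, genes beside Adnp at an unadjusted p under 0.05 with 4 named earlier, and the sex-linked genes and Dpm1. Neighbours of Adnp were counted as protein-coding genes. Further members of the marker lists (Ttr, Tnnt2, Alas2, Tfrc, Foxa2, Gata4, Tubb3, Nefm, Prl3c1, Igfbp1) and probe sets of Meg3 and Dlk1 were named after their values were seen. Alternatives were other pseudocounts, filters and scaling, no trend, only the 5 arrays, array weights, the replicate block, probe set choice, sex-linked genes, 2 covariates and each array left out.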

Additional observations from a re-analysis of the deposited data

Results flagged for a closer look

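The 3 Y-linked genes measured, outside the autosomal comparison, read above both wild-type pools in every heterozygous pool. On the brightest probe set of each gene over the 5 arrays, the heterozygous minus wild-type difference was 2.97 for Eif2s3y, 2.59 for Kdm5d and 0.89 for Uty. Their part in the autosomal results cannot be told apart from genotype.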

How the results depend on the processing

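Under all 21 alternatives 0 autosomal genes passed the adjusted threshold, with smallest adjusted p-values from 0.182 (without wild-type pool 1) to 0.9998 (quantile normalization). The count of 274 genes at an unadjusted p under 0.05 was 436 without a filter on dim probe sets, 467 with the Y-linked mean as covariate, and 227 to 461 with each array left out. The count of 1340 genes whose pools do not overlap was 2072 without the filter, 2030 over every probe set, and 1340 to 3611 with each array left out. Intervals within 2-fold numbered 7413, and 11433 of 12111 when every probe set was tested but 746 with the Y-linked covariate, with which the genotype is nearly confounded. Among named genes at an unadjusted p under 0.05, the sign turned for Hdgfl1 (1.59), Hes1 (-0.42) and Zfp622 (-0.14) with the Y-linked covariate and for Hsd17b7 (-0.023) as a mean over probe sets, and the cause was not tested.

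Same-numbered pools did not deviate together (correlations of -0.30 for wild type 1 with heterozygous 1 and -0.29 for the second pair). With 2 wild-type pools the deviations of pool 1 mirror those of pool 2. The correlations therefore cannot decide whether the numbers pair the pools. With the replicate block 0 genes passed and 277 had an unadjusted p under 0.05. Leaving out a wild-type pool leaves 1 array in that group, which is assumed to vary like the others. Dim genes are the least bounded. No member of the decidual, macrophage and germline lists was left under the filter at the 60th percentile.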
